A study of Homo sapiens with 6 samples.

Results

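The ABC drug and conjugate exporters examined here are 8 genes of the ATP-binding cassette superfamily: ABCC2, ABCC3, ABCC1, ABCC4, ABCC5, ABCC10, ABCB1 and ABCG2. They were taken by gene symbol from the deposited tables, and all 8 were among the 15284 genes listed in both tables and among the 12678 genes that passed the filter on low counts. The genes were chosen by their role and with the measured fold changes of both guides against WT in view, in which ABCC2 and ABCC3 were already known to be higher with the second guide. Values against the control, and whether they passed the all-gene threshold, are therefore given as a description, with nothing concluded from a pass. RNA came from HCT116, a human colorectal carcinoma cell line. KO1 and KO2 are cells labelled MUC3A knockout, each made with its own guide RNA against MUC3A, a membrane-bound intestinal mucin. WT is the control, labelled both wild type and negative control. Lentivirus from the lentiCRISPR v2 vector, which carries Cas9 and the guide, was used at a multiplicity of infection of 10, and puromycin at 2 µg/mL for 72 h selected the infected cells. The protocol also describes a scrambled control virus, so whether WT cells were infected is not settled by the labels, nor is it stated whether KO1 or KO2 is 1 clone or a pool. Poly(A) RNA was sequenced in 2 libraries per group, 6 in all.

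ABC exporters use ATP to move substrates out of the cell, and several were first known for making tumour cells resistant to drugs. The ABCC members, the multidrug resistance-associated proteins, carry organic anions such as glutathione and glucuronide conjugates, whereas ABCB1 (P-glycoprotein) and ABCG2 carry many unconjugated drugs. In gut epithelium ABCC2, ABCB1 and ABCG2 sit in the apical membrane facing the lumen, and ABCC3 sits in the basolateral membrane.

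Total counts per library lay between 13638724 and 17829599. Each group holds 1 library whose column name starts with HCT and 1 that starts with HCT116. What the prefix marks is not in the labels, and neither is the culture each library was made from. Errors here therefore measure the spread between libraries, which may be technical, and in bulk RNA fewer expressing cells and less RNA per cell cannot be told apart. The prefix moved more genes than either guide did, and guide effects were therefore fitted within prefix. Without a prefix term no guide comparison had a call in edgeR's quasi-likelihood test: 0 genes passed the adjusted threshold of 0.05, while 173 genes (1.36%) with KO1 and 309 (2.44%) with KO2 against WT, and 513 (4.05%) between the guides, had an unadjusted p under 0.05. Every edgeR call of a guide effect below rests on that term, and DESeq2 without it called 0 of the 8 exporters against WT. MUC3A itself stood at 52.9 and 28.6 CPM (counts scaled to a common library size by TMM, so that libraries of unequal depth compare) in the HCT and HCT116 libraries of KO1, at 30.04 and 24.6 CPM in those of KO2 and at 52.7 and 25.1 CPM in those of WT. Gene counts do not check an edited exon. Of the colon epithelium markers in the tables, EPCAM, CDH1, KRT8, KRT18, KRT19 and CDX2 were expressed in every library, with CDX2 at 14.4 CPM or more, whereas VIL1 stood at 0.195 CPM or less and CDX1 at 0.0651 CPM or less. Of the leukocyte markers PTPRC had no more than 1 read in any library, and CD68 had 4.66 to 19.03 CPM.

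Per length of gene, ABCC2 was the most abundant of the exporters. Levels between genes are given as CPM per kilobase, the CPM divided by the length of the gene's merged exons in GENCODE release 29. ABCC2 had 19.7 and 17.8 CPM per kilobase in KO1, 48.8 and 43.0 in KO2, and 23.4 and 18.2 in WT, the HCT library first in each group. ABCC3 had 9.30 and 15.2 CPM per kilobase in KO1, 15.9 and 18.04 in KO2, and 7.39 and 7.92 in WT. ABCC2 was above ABCC3 in 6 of 6 libraries, by 1.17-fold to 3.16-fold. Next came ABCC10, with a median of 7.92 CPM per kilobase over the 6 libraries, and ABCC4, with a median of 7.12. Their order was not fixed, since ABCC10 was above ABCC4 in 3 of 6 libraries, and ABCC3 was above ABCC10 in 5 of 6. ABCC5 followed at a median of 3.09 CPM per kilobase, below ABCC4 and above ABCB1 in 6 of 6 libraries. The 3 genes at the low end were ABCB1, ABCC1 and ABCG2, with medians of 1.35, 0.855 and 0.502 CPM per kilobase. ABCB1 was above ABCC1 in 4 of 6 libraries and ABCC1 above ABCG2 in 4 of 6, so these neighbours did not separate. ABCC2 and ABCC3 together made up 58.8% and 65.1% of the summed CPM per kilobase of the 8 genes in KO1, 72.1% and 73.4% in KO2, and 57.9% and 60.01% in WT. The share was higher in both KO2 libraries than in the other 4. It is the share of the pair already known to be higher in KO2, so nothing is read from it. With the length of the longest transcript in place of the merged exons the order of the 8 medians was the same, and the median of ABCC5 was 5.49 CPM per kilobase.

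**Figure D1:**
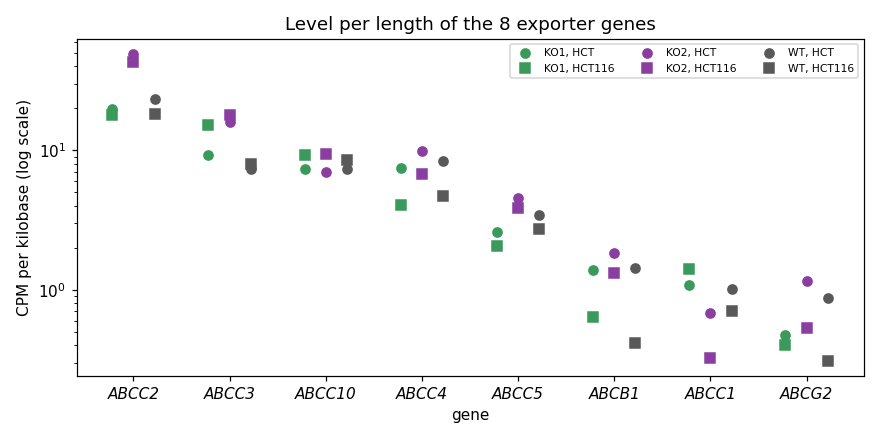
CPM per kilobase (log axis) of the 8 exporter genes in each of the 6 libraries; colour gives the group, circles the HCT library and squares the HCT116 library. ABCC2 lies at 17.8 to 48.8 CPM per kilobase, above ABCC3 in every library, and ABCG2, ABCC1 and ABCB1 lie at 1.84 or less.

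ABCC2, which exports conjugates across the apical membrane and is the canalicular exporter of bilirubin glucuronides in liver, was higher in KO2. It had 5740 and 3830 reads, or 300.4 and 264.6 CPM, in the HCT and HCT116 libraries of KO2, against 2211 and 1423 reads, or 143.9 and 111.9 CPM, in those of WT. Both KO2 libraries lay above both WT libraries. The fitted change was 2.22-fold (1.15 ± 0.12 on the log2 scale, with the SE of the fit and 2 libraries in each group, 95% interval 0.886 to 1.41), with 2.09-fold within the HCT libraries and 2.36-fold within the HCT116 libraries. In KO1 the gene had 121.01 and 109.8 CPM, against the same 143.9 and 111.9 CPM in WT. The KO1 value overlapped with WT at a log2 fold change of -0.14 ± 0.12, with a 95% interval from -0.404 to 0.123.

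ABCC3, the basolateral counterpart that carries glucuronides and bile salts, was also higher in KO2 and lay above WT in KO1. It had 59.7 and 97.7 CPM in KO1, 102.0 and 115.7 CPM in KO2, and 47.4 and 50.8 CPM in WT. The groups did not overlap: KO2 was highest, KO1 in between and WT lowest. Against WT the log2 fold change in KO2 was 1.14 ± 0.16, a 2.21-fold rise with close values in the HCT (2.15-fold) and HCT116 (2.27-fold) libraries. In KO1 it was 0.65 ± 0.16, with 1.26-fold in the HCT and 1.92-fold in the HCT116 libraries. That KO1 value did not pass the all-gene threshold in edgeR, but it did in DESeq2, in edgeR with no filter on low counts, and in edgeR without the HCT library of WT (0.82) or without either KO2 library (0.64 without the HCT and 0.62 without the HCT116 library). In each fit that leaves out a library, its group is 1 library that is assumed to vary like the other groups.

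ABCC1, which exports glutathione conjugates and many drugs, had its lowest values in KO2. It had 106 and 120 reads in KO1, 86 and 31 reads in KO2, and 102 and 59 reads in WT. On the CPM scale these were 7.10 and 9.27 in KO1, 4.50 and 2.14 in KO2, and 6.64 and 4.64 in WT. Both KO2 libraries lay below both WT libraries, and both KO1 libraries lay above them. Neither difference from WT passed the threshold: the log2 fold change was -0.76 ± 0.35 in KO2 and 0.57 ± 0.33 in KO1. The log2 ratios in KO2 were -0.55 in the HCT and -1.07 in the HCT116 libraries, and those in KO1 were 0.10 and 0.98. Without the HCT116 library of KO1 the KO1 value was -0.03. Without the HCT library of KO2 the value was -1.39 and passed the threshold, with KO2 as 1 library and the spread taken from the other groups.

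**Figure D2:**
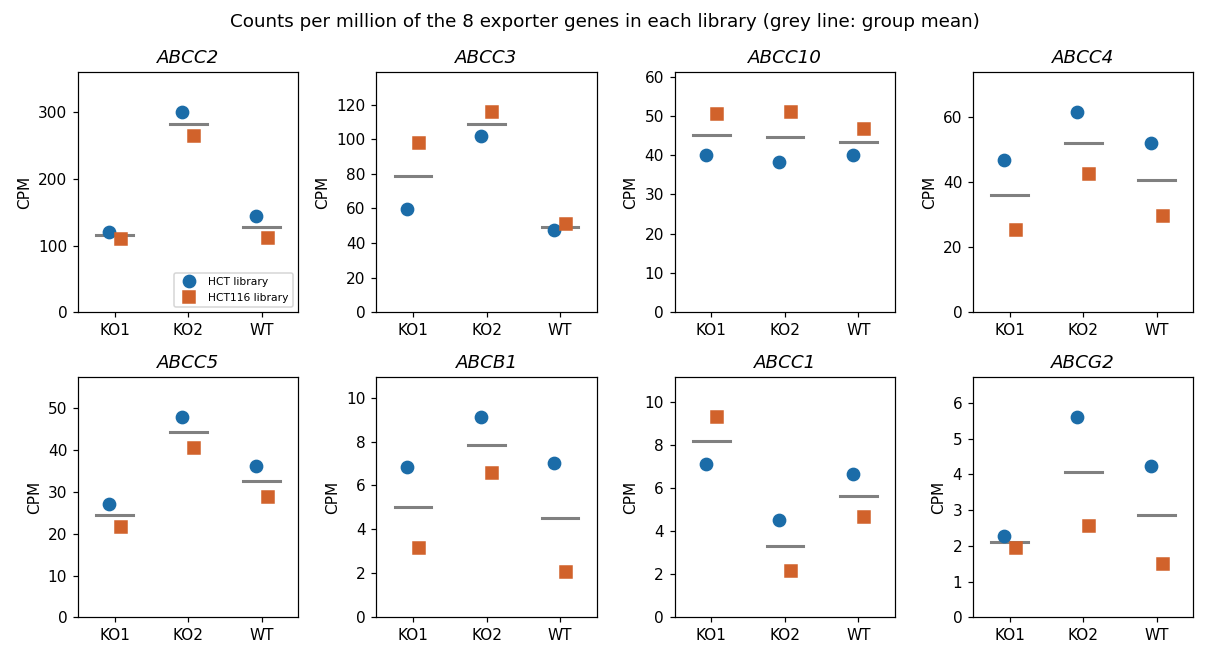
CPM of the 8 exporter genes in the libraries of KO1, KO2 and WT, each panel on its own axis from 0; circles are HCT libraries, squares HCT116 libraries and grey lines group means. ABCC2 stands at 264.6 and 300.4 CPM in KO2 and at 109.8 to 143.9 CPM in the other 4 libraries, while ABCC10 stays between 38.4 and 51.0 CPM in all 6.

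ABCC4 and ABCC5 export cyclic nucleotides and nucleotide analogues. ABCC5, which is known to carry fluoropyrimidine nucleotides, had 27.2 and 21.6 CPM in KO1, 47.8 and 40.6 CPM in KO2, and 36.1 and 28.9 CPM in WT. The groups again did not overlap, in the order KO2, WT, KO1. Its log2 fold change against WT was -0.41 ± 0.15 in KO1 and 0.45 ± 0.14 in KO2. The log2 ratios were alike in the HCT and HCT116 libraries, at -0.41 and -0.41 in KO1 and at 0.40 and 0.49 in KO2. Neither passed the threshold over all genes, but the KO1 value passed without either KO2 library (at -0.41 without the HCT and -0.43 without the HCT116 library) and the KO2 value without the HCT library of KO2 (0.49). ABCC4 had 46.8 and 25.2 CPM in KO1, 61.6 and 42.4 CPM in KO2, and 52.1 and 29.4 CPM in WT. Here the HCT libraries of all groups lay above the HCT116 libraries, and the groups overlapped. The log2 fold change of ABCC4 was -0.19 ± 0.15 in KO1 and 0.38 ± 0.15 in KO2, and the KO2 value passed the threshold only without the HCT library of KO2 (0.55).

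ABCB1, the P-glycoprotein gene, and ABCG2, whose product works as a dimer and also exports urate, had few reads. ABCB1 had 102 and 41 reads in KO1, 174 and 95 reads in KO2, and 108 and 26 reads in WT. In CPM this was 6.83 and 3.17 in KO1, 9.11 and 6.56 in KO2, and 7.03 and 2.05 in WT, so the groups overlapped. Its log2 fold change in KO2 was 0.91 ± 0.32, made up of 0.37 in the HCT and 1.62 in the HCT116 libraries. It passed the threshold only without the HCT library of KO2, at 1.44, where KO2 is again 1 library and the other groups give the spread. ABCG2 had 2.28 and 1.93 CPM in KO1, 5.60 and 2.56 CPM in KO2, and 4.23 and 1.49 CPM in WT. With 19 to 107 reads per library, its 95% intervals were wide, from -1.24 to 0.524 in KO1 and from -0.277 to 1.34 in KO2 on the log2 scale. For ABCB1 in KO1 the log2 fold change was 0.19 ± 0.33.

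ABCC10, known for export of taxanes, differed least between the groups. It had 39.9 and 50.5 CPM in KO1, 38.4 and 51.0 CPM in KO2, and 39.9 and 46.6 CPM in WT. Its 95% interval ran from 0.844-fold to 1.28-fold in KO1 and from 0.833-fold to 1.26-fold in KO2. An exon of ABCC10 overlaps DLK2 on the opposite strand in GENCODE release 29, and no other annotated gene overlaps an exon of any of the 8. No source here states the strand setting of the counting, and DLK2 stood at 3.25 CPM or less in every library.

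Against WT, 0 of 8 exporters passed the all-gene threshold in KO1, where 1.03% of all tested genes did, 0.678% higher and 0.347% lower (edgeR, 2 of 8 at an unadjusted p under 0.05, 1 of 8 in DESeq2, which called 1.62% of all genes, and 0 of 8 in limma-voom). In KO2 2 of 8 passed, both higher, where 4.61% of all genes passed, 2.15% higher and 2.47% lower. ABCC2 and ABCC3 are the pair known beforehand, so nothing is read from that count. In the edgeR fit with the prefix, unadjusted p-values under 0.05 were common among all 12678 genes. At least 592 genes and fewer than 2005 had one in KO1 against WT, and at least 2442 had one in KO2 against WT. Counts of genes at an unadjusted p under 0.05, here and below, are to be read against those numbers. The median log2 fold change of the 8 was -0.04 in KO1, with 4 of 8 positive, and 0.49 in KO2, with 7 of 8 positive. Over all tested genes the medians were 0.0012 and -0.00013. No overlap between KO2 and WT libraries was seen for 3 higher genes (ABCC2, ABCC3 and ABCC5) and 1 lower gene (ABCC1), where 11.9% and 8.48% of all genes showed this. In KO1 against WT the counts were 2 higher (ABCC1 and ABCC3) and 1 lower (ABCC5), against 6.86% and 5.71%. The summed CPM of the 8 genes was 315.1 ± 5.86 in KO1, 547.5 ± 30.96 in KO2 and 306.6 ± 43.5 in WT (SD, n = 2 libraries each). The pair known beforehand weighs heavily in that sum. ABCC2 averaged 282.5 CPM in KO2 and 127.9 CPM in WT, and ABCC3 averaged 108.9 and 49.1 CPM. The sum is therefore no measure of the exporters as a class.

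**Figure D3:**
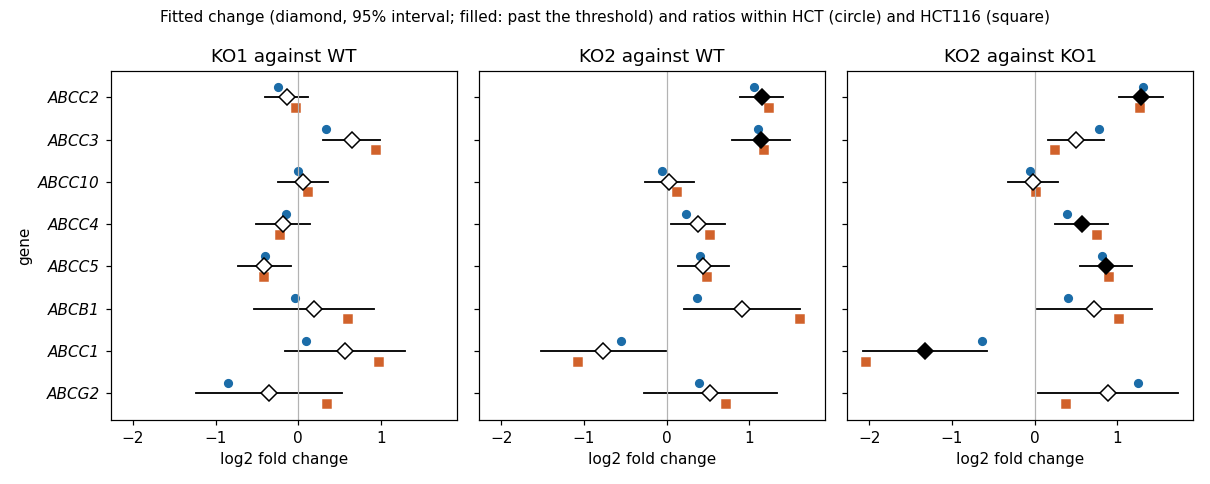
Log2 fold changes of the 8 exporter genes in 3 comparisons that share libraries; diamonds with 95% intervals come from the edgeR fit with the prefix as a term, filled where the adjusted p is below 0.05, and circles and squares are ratios within the HCT and HCT116 libraries. ABCC2 and ABCC3 are past the threshold in KO2 against WT, and ABCC2, ABCC4, ABCC5 and ABCC1 in KO2 against KO1.

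The guides were also set against each other, in a comparison that shares its libraries with those above and is likewise descriptive. In KO2 against KO1, 3 of 8 exporters were higher and 1 was lower past the threshold, where 9.62% of all genes passed, 4.24% higher and 5.39% lower. ABCC2 was 2.45-fold higher in KO2 than in KO1 (log2 fold change 1.29 ± 0.12), ABCC5 1.81-fold (0.86 ± 0.14) and ABCC4 1.48-fold (0.57 ± 0.15). ABCC1 was 2.51-fold lower in KO2 than in KO1 (-1.33 ± 0.34), with log2 ratios of -0.64 in the HCT and -2.05 in the HCT116 libraries. ABCC2 passed without each library in turn. The call for ABCC1 ended without the HCT116 library of KO1 (-0.78), that for ABCC5 without the HCT library of KO1 (0.88), and that for ABCC4 without either KO1 library (0.68 without the HCT and 0.46 without the HCT116 library). ABCC3, at 0.50 ± 0.15, did not pass, but it did without either WT library (0.51 both times), without the HCT116 library of KO1 (0.79), without the HCT116 library of KO2 (0.64) or the HCT library of KO2 (0.38), and with no filter on low counts. ABCB1 passed only without the HCT library of KO2 (1.24). Without overlap between KO2 and KO1 libraries were ABCC2, ABCC3, ABCC5 and ABCG2, higher in KO2, and ABCC1, lower in KO2, where 13.3% and 11.5% of all genes showed this. Of the 6 colon epithelium markers tested, KRT8, KRT18, KRT19 and CDH1 fell in KO2 against KO1, by 0.75, 0.78, 0.68 and 0.46 on the log2 scale, and 0 rose. The summed level of these and the other listed markers was 5271 and 9239 CPM in KO2, 8746 and 15044 CPM in KO1 and 6351 and 8373 CPM in WT, and against WT edgeR called 0 of them with either guide (4 of 6 in KO1 and 0 of 6 in KO2 at an unadjusted p under 0.05, 3 and 0 by DESeq2, 0 and 0 by limma-voom). Leukocyte markers summed to 5.65 and 13.1 CPM in KO2, 20.8 and 19.6 CPM in KO1 and 8.59 and 8.97 CPM in WT, and CD68 among them fell in KO2 against KO1 (-1.25, edgeR adjusted p = 0.0248). Fibroblast markers summed to 35.4 to 67.5 CPM per library, nearly all of it COL1A1. Their part in the exporter values was not tested. Transcripts of the mitochondrial genome made up 8.90% and 6.95% of counts in KO2, 5.94% and 4.20% in KO1 and 5.34% and 4.84% in WT, and their part was not tested either.

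The difference between the prefixes is a contrast that the choice of genes did not use, and it was tested with edgeR's quasi-likelihood test and Benjamini-Hochberg adjustment over all 12678 genes. Of the 8 exporters 6 differed, 2 higher and 4 lower in the HCT116 libraries, where 63.9% of all genes differed, 31.8% higher and 32.1% lower. The share of exporters is near that of all genes. ABCB1 averaged lower in the HCT116 libraries in all 3 groups (log2 fold change -1.05 ± 0.27, SE, n = 3 libraries per prefix, edgeR adjusted p = 0.00483), as did ABCG2 (-0.98 ± 0.32, edgeR adjusted p = 0.0178) and ABCC4 (-0.75 ± 0.12, edgeR adjusted p = 0.000251). ABCC5 was lower by a smaller step (-0.30 ± 0.12, edgeR adjusted p = 0.0441). ABCC3 (0.33 ± 0.13, edgeR adjusted p = 0.0394) and ABCC10 (0.33 ± 0.11, edgeR adjusted p = 0.024) were higher. ABCC2 missed the threshold at -0.23 ± 0.10 (edgeR adjusted p = 0.0593) and ABCC1 at -0.33 ± 0.28 (edgeR adjusted p = 0.313). The calls for ABCB1 and ABCC4 held when each library was left out in turn. The call for ABCC5 also ended with RLE size factors (-0.29), with no filter on low counts (-0.29) and in DESeq2 (-0.29). The calls for ABCC5 and ABCC10 ended without any 1 library of KO1 or WT, at -0.28, -0.26, -0.28 and -0.28 for ABCC5 and at 0.32, 0.34, 0.37 and 0.38 for ABCC10, in the order HCT and HCT116 of KO1, HCT and HCT116 of WT. The call for ABCC3 ended without the HCT (0.14) or HCT116 (0.17) library of KO1, and that for ABCG2 without the HCT (-0.74) or HCT116 (-0.74) library of WT. ABCC2 passed without the HCT library of KO2 (-0.25).

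**Figure D4:**
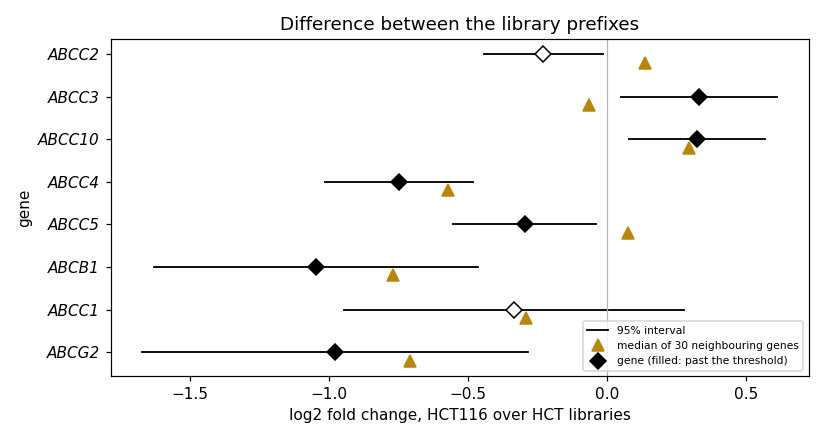
Log2 fold change of each exporter gene in the HCT116 over the HCT libraries (diamonds with 95% intervals, filled where the edgeR adjusted p is below 0.05) beside the median of the 30 tested genes that neighbour it on its chromosome (triangles). ABCB1, ABCG2 and ABCC4 are the lowest in the HCT116 libraries, and the medians of their neighbours, at -0.77, -0.71 and -0.57, are the lowest of the 8 as well.

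Genes next to an exporter on its chromosome were read from the same fit, in which 31.8% of all genes were higher and 32.1% lower in the HCT116 libraries. Around ABCB1 on chromosome 7, 21 of 30 neighbouring tested genes were lower in the HCT116 libraries and 1 was higher, with a median log2 fold change of -0.77. The same number, 21 of 30, was lower around ABCG2 on chromosome 4 (median -0.71, with 3 higher) and around ABCC4 on chromosome 13 (median -0.57, with 0 higher). Around ABCC10 on chromosome 6, which was itself higher, 16 of 30 were higher and 2 lower. Around ABCC1, which itself missed the threshold, 4 were higher and 13 lower (median -0.29). The neighbours of ABCC5, ABCC3 and ABCC2 were split. There were 14 higher and 12 lower around ABCC5 (median 0.08), 11 and 11 around ABCC3 (-0.06), and 12 and 8 around ABCC2 (0.14). Neighbours were taken from gene order in RefSeq, which placed 12587 of the 12678 tested genes.

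The promoters of 4 exporters are shown because ABCC2, ABCC5 and ABCC4 were higher in KO2 than in KO1 together, while ABCC10 differed least. Each is the 250 bases before the RefSeq start on GRCh38.p14, written 5′ to 3′ on the gene's strand. The windows are chr10:99782390-99782639 on the plus strand for ABCC2, chr3:184017885-184018134 on the minus strand for ABCC5, chr13:95301452-95301701 on the minus strand for ABCC4 and chr6:43427613-43427862 on the plus strand for ABCC10. Capitals mark matches, on both strands, to the antioxidant response element core TGACNNNGC, which NRF2 binds, the xenobiotic response element core GCGTG of the aryl hydrocarbon receptor, the GC box GGGCGG and the CCAAT box CCAAT.
ABCC2: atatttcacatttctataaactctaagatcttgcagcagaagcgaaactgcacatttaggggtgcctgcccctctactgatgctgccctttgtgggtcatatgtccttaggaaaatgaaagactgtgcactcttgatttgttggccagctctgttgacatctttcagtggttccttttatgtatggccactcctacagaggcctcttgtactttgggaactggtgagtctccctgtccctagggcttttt
ABCC5: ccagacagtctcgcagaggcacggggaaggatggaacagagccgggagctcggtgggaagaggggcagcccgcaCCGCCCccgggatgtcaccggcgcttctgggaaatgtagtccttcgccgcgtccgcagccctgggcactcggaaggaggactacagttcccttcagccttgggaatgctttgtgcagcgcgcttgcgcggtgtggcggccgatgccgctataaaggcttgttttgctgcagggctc
ABCC4: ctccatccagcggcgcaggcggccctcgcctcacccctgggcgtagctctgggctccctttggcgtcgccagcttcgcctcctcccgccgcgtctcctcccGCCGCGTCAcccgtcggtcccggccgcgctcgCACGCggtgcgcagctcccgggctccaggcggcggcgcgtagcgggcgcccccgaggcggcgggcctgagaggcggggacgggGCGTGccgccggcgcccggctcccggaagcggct
ABCC10: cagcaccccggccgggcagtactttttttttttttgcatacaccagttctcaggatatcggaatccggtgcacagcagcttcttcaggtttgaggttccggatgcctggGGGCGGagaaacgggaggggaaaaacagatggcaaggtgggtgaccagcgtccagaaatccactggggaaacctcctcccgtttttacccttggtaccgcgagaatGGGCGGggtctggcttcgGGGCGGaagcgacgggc
The ABCC2 window, at 45.6% G and C, held none of the 4 motifs. ABCC4, at 80.4% G and C, held 1 antioxidant response element core that starts 149 bases before the start site, and 2 xenobiotic response element cores. ABCC5 held 1 GC box and ABCC10 held 3. No motif match overlaps another in these windows. The windows of ABCB1 and ABCG2, matched as well but not shown, held 0 of the 4 motifs, and those of ABCC1 and ABCC3 were not used here. The first bases after the ABCG2 start were not found in any GENCODE transcript of that gene. Other start sites of these genes were not examined, so a window without a match does not describe every promoter of its gene. Among 35116 RefSeq promoters of the same length, 10.9% held the antioxidant response element core, 32.2% the xenobiotic response element core, 42.6% the GC box and 32.0% the CCAAT box. A match is a description of letters and not of a bound site.

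Genes that act with these exporters gave few calls, to be read against the 1.03% of all genes called in KO1 and 4.61% in KO2. Counts at an unadjusted p under 0.05 stand beside at least 592 and fewer than 2005 of the 12678 genes in KO1. In KO2 they stand beside at least 2442. Of 40 listed genes of the ABC superfamily outside the 8, 34 were in both deposited tables and 19 passed the filter on low counts. With edgeR 0 of the 19 passed in KO1, and 1 rose and 0 fell in KO2, with medians of -0.01 and -0.04. The 1 was ABCA4, known as a retinoid transporter of the retina, at 3.61 and 2.35 CPM in KO2 against 0.716 and 0.472 CPM in WT (log2 fold change 2.31 ± 0.47, edgeR adjusted p = 0.019). With either WT library left out it lost the call (2.32 without the HCT and 2.31 without the HCT116 library). ABCC6, ABCC8, ABCC9, ABCC11 and ABCC12 had no more than 11 reads in any library.

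NRF2 is the transcription factor of the oxidative stress response, and ABCC2 and ABCC3 are among its known targets. Of 25 other NRF2 regulators and targets tested, 0 passed in KO1 (edgeR, 5 at an unadjusted p under 0.05, 0 by DESeq2 and 0 by limma-voom), and 1 of 25 rose and 0 fell in KO2, near the 4.61% of all genes, with medians of 0.0018 and 0.04. That gene, NQO1, a quinone reductase, had 787.9 and 1125 CPM in KO2, against 436.3 and 756.1 CPM in WT (0.71 ± 0.13, edgeR adjusted p = 0.0125, and 0.57 with no call without the HCT library of WT). NFE2L2, which encodes NRF2 itself, had 139.3 and 103.5 CPM in KO2, against 116.2 and 95.5 CPM in WT. Glutathione synthesis and transferase genes make the conjugates that ABCC proteins carry. Of 17 tested, edgeR called 0 in KO1 and 0 in KO2 (1 and 4 at an unadjusted p under 0.05, 0 and 0 by DESeq2, 0 and 0 by limma-voom), although 16 of 17 log2 fold changes were positive in KO2, with a median of 0.20. Of 28 listed glucuronide and sulphate transferase genes, 6 could be tested, all of them sulphate transferases (SULT genes). No glucuronide transferase was tested: UGT2B4, the only such gene listed with counts, had 1 read in the HCT library of WT. Among the 6, edgeR called 0 in KO1 and 0 in KO2 (1 and 2 at an unadjusted p under 0.05, 0 by DESeq2 and 0 by limma-voom in both). In KO2, 5 of 6 were positive, with a median of 0.41. These 5 had few reads, 8 to 126 per library. SULT1A1, with 387 to 549 reads per library, went the other way (-0.29 ± 0.14).

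A list of 22 receptors that sense drugs and bile acids and of their targets gave calls in both directions. The receptors NR1I2 and NR1I3 had no more than 3 and 14 reads in any library and were not tested. VDR, RXRA and AHR were tested, and edgeR called none of them against WT with either guide. In KO1, 1 of 14 tested genes rose and 0 fell. It was HNF4A, a transcription factor of liver and gut epithelium, at 14.5 and 10.2 CPM in KO1 against 6.44 and 5.03 CPM in WT (1.10 ± 0.23, edgeR adjusted p = 0.0499). That call ended in limma-voom and without any 1 library of KO1 or WT, where the log2 fold change was 0.94 to 1.22. In KO2, 1 of 14 rose and 2 fell. AHRR, a repressor of the aryl hydrocarbon receptor and itself its target, rose 2.10-fold (1.07 ± 0.16, edgeR adjusted p = 0.00329). CYP24A1, the vitamin D 24-hydroxylase, fell to 58.8 and 44.01 CPM in KO2, against 359.8 and 166.5 CPM in WT (-2.28 ± 0.17, edgeR adjusted p = 2.72e-05). FGF19, an intestinal hormone induced by bile acids, fell 1.49-fold (-0.58 ± 0.15, edgeR adjusted p = 0.0465), a call that ended without the HCT library of KO1 (-0.59), the HCT116 library of KO2 (-0.35) or the HCT116 library of WT (-0.47).

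Uptake carriers and apical scaffold proteins added 1 call each in KO2, where 4.61% of all genes were called. Of 15 uptake carriers and other exporters tested, SLCO3A1, an organic anion carrier, rose 2.43-fold (1.28 ± 0.26, edgeR adjusted p = 0.0192), 0 fell, and the call ended without the HCT116 library of WT (0.93). Of 8 scaffold genes, EZR fell and 0 rose. EZR encodes ezrin, which ties apical membrane proteins to actin, and had 1031 and 1099 CPM in KO2, against 2362 and 1764 CPM in WT (-0.93 ± 0.16, edgeR adjusted p = 0.00824). In KO1 edgeR called 0 genes in both lists (2 uptake and 1 scaffold gene at an unadjusted p under 0.05, 0 by DESeq2 and 0 by limma-voom).

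Likeness of pattern was measured as Pearson's r over the 6 libraries in log2 CPM, after the mean of each prefix was subtracted, among 9787 well expressed genes. For ABCC2 the nearest were IL15RA (0.9997) and CSPP1 (0.998), for ABCC3 SRP54 (0.9997) and HR (0.9997), and for ABCC1 TMC5 (0.999) and PUS7 (0.998). ABCC4 was nearest to CAMK2D (0.9997) and RPL22L1 (0.999), and ABCC5 to MOSPD3 (0.998) and CPSF3 (0.996). For ABCC10 SECISBP2L (0.999) is given, for ABCB1 PTPN4 (0.999) and HIVEP3 (0.998), and for ABCG2 KIAA1522 (0.998) and PIGP (0.997). With 6 points such values are common: 313 genes reached an r over 0.95 with ABCC2, and 54 did with ABCG2.

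The authors' deposited table for KO2 gave ABCC2 a log2 fold change of 1.10 and ABCC3 1.10. Their adjusted p-values in the same authors' deposited table were 0.999996 and 0.999996. For KO1 the authors' deposited table gave -0.16 and 0.66. These log2 fold changes differ from the fitted ones above by less than the standard errors.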

How the data were processed

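Read counts per gene for 6 poly(A) RNA libraries (NEBNext Ultra) were taken as the authors deposited them in a table per guide. The genome build hg18 and the tools HTSeq 0.6.0, STAR and DESeq2 come, without roles, from the submitters' processing notes, and annotation and strand setting were not stated. The authors' own log2 fold changes and p-values, per the file headers, are quoted only where named. Another 40 per-library columns were not used, among them normalized values per length, since their names do not tie them to single samples. Levels per length, planned from those, were computed from the counts instead.

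Counts were fitted in edgeR 4.0.16 (R 4.3.3, quasi-likelihood, TMM scaling, filterByExpr with a minimum count of 10) with group and prefix as terms over all 6 libraries, and Benjamini-Hochberg adjustment at 0.05 over 12678 genes. The biological coefficient of variation was 0.118, and 0.383 without the prefix, with 2 and 3 residual degrees of freedom. Column names carry no replicate numbers. Libraries with the same prefix deviated together from their group means (r = 0.8675, 0.8155 and 0.7833 for WT with KO1, WT with KO2, and KO1 with KO2), and the prefix served as the block. In DESeq2 1.42.0 and limma 3.58.1 (voom) the same terms were fitted as alternatives. CPM used TMM-scaled totals, on which 3 counts are 0.157 to 0.236 CPM. The scripts were tested on simulated data.

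Members, lists and the prefix term were chosen with earlier results of these data known. Genes named beyond the 8 are the up to 3 called genes of smallest p per list and guide, and the 2 nearest by pattern (mean log2 CPM of at least 3), of which 1 is not reported here. The other ABC genes and markers named were added after their values were seen.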

Additional observations from a re-analysis of the deposited data

Results flagged for a closer look

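In KO2 against KO1, 4 exporters differed between the guides in edgeR's test with the prefix as a term, where 9.62% of all genes did: ABCC2 (log2 fold change 1.29), ABCC5 (0.86), ABCC4 (0.57) and ABCC1 (-1.33). The earlier choice of these genes used both guides, so these values are a description. For 3 genes the ratio to WT had opposite signs in the HCT and HCT116 libraries, and this difference was not tested. ABCG2 in KO1 had a log2 ratio of -0.86 in the HCT libraries and 0.34 in the HCT116 libraries. ABCB1 in KO1 had -0.040 in the HCT and 0.60 in the HCT116 libraries. ABCC10 in KO2 had -0.056 in the HCT and 0.13 in the HCT116 libraries.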

How the results depend on the processing

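Every edgeR guide call among the exporters was lost without the block, at similar folds (KO2 against WT, 1.14 for ABCC2 and 1.15 for ABCC3). With no replicate block, edgeR called 0 genes and 0 exporters for both guides against WT and between the guides. DESeq2 with no replicate block, added after seeing the data, called 16 genes for KO1 and 42 for KO2 against WT with 0 exporters each, and 118 genes between the guides with 1 exporter, ABCC2 (1.27). With no filter on low counts, 316 genes and 1 exporter were called in KO1 against WT, and 949 genes in KO2 against WT. DESeq2 with the prefix called 205 genes and 1 exporter in KO1 against WT. The cause was not tested.

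With each library left out in turn, 0 to 2 exporters and 69 to 901 genes were called in KO1 against WT, 2 to 6 and 317 to 2170 in KO2 against WT, 2 to 6 and 391 to 3202 in KO2 against KO1, and 3 to 7 and 6481 to 8754 between the prefixes. Signs turned only in such fits, among single-gene values: in KO1 against WT ABCG2 (-0.82 to 0.24), ABCC1 (-0.031 to 1.13), ABCC10 (-0.011 to 0.13) and ABCB1 (-0.18 to 0.83), ABCC10 in KO2 against WT (-0.032 to 0.11) and in KO2 against KO1 (-0.068 to 0.041), and ABCC1 between the prefixes (-0.77 to 0.00103). Of 472 single-gene values under alternatives, 387 kept direction and side of the threshold, 57 lost a call, 19 gained one and 9 turned sign. ABCG2, ABCB1 and ABCC1 had only 19 to 174 reads per library, and the part of depth in their spread was not tested.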
